A study of Mus musculus with 20 samples.

Results

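The regions described here are stretches of H3K27ac in mouse liver that lie far from any protein-coding gene. H3K27ac, acetylation of lysine 27 of histone H3, was measured by chromatin immunoprecipitation followed by sequencing (ChIP-seq). Members were chosen by 5 conditions: an interval of the H3K27ac consensus set, shorter than 8000 bases, with a called peak in at least 6 of the 8 H3K27ac libraries, overlapping the consensus set of H3K9ac (acetylation of lysine 9), and with its midpoint more than 50000 bases from every protein-coding gene body in the RefSeq table of GRCm38.p6, the assembly that mm10 names. These conditions left 407 far regions of 65776 H3K27ac consensus intervals. Without the distance condition 16140 intervals remained, so the 15733 others served as the near intervals. Because the selection used peak calls of both acetylation marks, the presence of those marks at the members is a description and not a result.

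All livers came from 9-week-old male C57BL/6 mice fasted for 24 hours. The 4 genotypes were wild type (WT), Cpt2 L-/- (a knockout confined to the liver), Ppara -/- and the double knockout Cpt2 L-/- ; Ppara -/-. Each genotype gave 2 livers for H3K27ac and 2 for H3K4me1, and the animal numbers in the peak names show the same 8 animals behind both marks. H3K9ac was profiled in 1 WT and 1 Cpt2 L-/- liver and comes as intervals without enrichment values. The driver of the liver-specific deletion is not given in the sources used here. Whole tissue was used, so a lower signal cannot be told apart from fewer cells of one type carrying it.

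Enhancers are DNA elements that raise transcription of a gene from a distance, sometimes across great stretches of DNA. Monomethylation of lysine 4 of histone H3 (H3K4me1) is found at enhancers whether or not they are active, whereas H3K27ac and H3K9ac go with active enhancers and promoters. In the fasted liver, fatty acids released from adipose tissue are oxidised in mitochondria, for which carnitine palmitoyltransferase 2, the product of Cpt2, is required for long chains. The nuclear receptor encoded by Ppara is activated by fatty acids and switches on genes of their oxidation. The factorial design asked what the loss of either gene, and of both, does to liver chromatin.

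Of the 337 far regions with a peak in all 8 libraries, the largest difference between double knockout and WT lay between Areg and Btc, which encode amphiregulin and betacellulin, both ligands of the epidermal growth factor receptor. That region is 1 of 90 far regions that overlap an annotated RefSeq promoter of a non-coding gene by at least 1 base. Promoters of 5 such genes are shown because their regions are among those that changed most: Gm19619 between Areg and Btc, Gm29924 near Ppargc1a, Platr22 between Zfp281 and Nr5a2, Gm40574 between Rtl1 and Dio3, and Gm30081 near Galnt2. The first 3 lie in regions that rose in Ppara-null livers and the last 2 in regions that fell. Each sequence is written 5′ to 3′ on the gene's own strand from RefSeq GRCm38.p6, with the 250 bases before the annotated start in lower case and the 50 bases from the start on in capitals.

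Gm19619, chr5:91283027-91283326, minus strand: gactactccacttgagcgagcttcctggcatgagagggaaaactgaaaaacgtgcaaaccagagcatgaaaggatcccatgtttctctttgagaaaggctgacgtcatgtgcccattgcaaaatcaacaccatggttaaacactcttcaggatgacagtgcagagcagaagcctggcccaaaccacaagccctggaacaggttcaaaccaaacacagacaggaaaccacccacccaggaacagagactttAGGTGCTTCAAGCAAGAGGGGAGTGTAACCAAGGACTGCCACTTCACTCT
Gm29924, chr5:51289281-51289580, minus strand: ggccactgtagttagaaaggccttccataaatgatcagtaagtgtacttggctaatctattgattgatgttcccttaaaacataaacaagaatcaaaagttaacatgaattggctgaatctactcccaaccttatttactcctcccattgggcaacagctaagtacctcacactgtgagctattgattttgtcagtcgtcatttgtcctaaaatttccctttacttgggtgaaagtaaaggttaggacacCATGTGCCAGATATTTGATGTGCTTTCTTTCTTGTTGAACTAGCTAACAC
Platr22, chr1:136695961-136696260, plus strand: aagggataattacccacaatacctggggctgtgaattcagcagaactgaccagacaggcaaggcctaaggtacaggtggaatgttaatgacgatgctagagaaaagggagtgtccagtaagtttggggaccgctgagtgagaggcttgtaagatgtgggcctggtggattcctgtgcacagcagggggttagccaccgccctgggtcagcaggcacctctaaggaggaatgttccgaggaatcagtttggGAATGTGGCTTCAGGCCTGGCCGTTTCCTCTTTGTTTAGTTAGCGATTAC
Gm40574, chr12:110024435-110024734, plus strand: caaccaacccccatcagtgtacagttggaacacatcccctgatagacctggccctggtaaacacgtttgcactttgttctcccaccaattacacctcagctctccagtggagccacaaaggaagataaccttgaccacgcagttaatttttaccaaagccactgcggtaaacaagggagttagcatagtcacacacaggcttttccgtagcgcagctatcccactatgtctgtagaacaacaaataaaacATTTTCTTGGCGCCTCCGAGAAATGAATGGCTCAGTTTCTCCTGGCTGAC
Gm30081, chr8:124152912-124153211, minus strand: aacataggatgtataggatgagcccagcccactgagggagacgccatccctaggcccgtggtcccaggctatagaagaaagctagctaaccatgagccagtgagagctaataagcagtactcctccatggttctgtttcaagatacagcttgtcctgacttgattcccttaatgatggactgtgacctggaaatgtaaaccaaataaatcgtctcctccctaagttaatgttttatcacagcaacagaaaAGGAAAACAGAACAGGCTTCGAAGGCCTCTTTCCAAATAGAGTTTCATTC

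The number of CpG dinucleotides was 3 in Gm19619, 1 in Gm29924, 6 in Platr22, 7 in Gm40574 and 4 in Gm30081. Over the 103 RefSeq promoters wholly inside far regions the median was 4 CpG in 300 bases (quartiles 3 and 8). These are promoters of long non-coding RNA genes, some of them alternative starts of the same gene. Over 32544 RefSeq promoters of all kinds, coding genes included, it was 7 (quartiles 3 and 20). The median GC content was 51.0% in the far promoters against 53.0% over all. The sets differ in kind of gene as well as in place, so neither difference is read as a trait of far promoters.

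Far regions also held 2 annotated miRNA hairpins, Mir802 and Gm51276. Mir802, a miRNA gene between Runx1 and Setd4, lies inside a region at chr16:93367558-93370546, 214.4 kb from Setd4. The RefSeq mature sequence is printed with its seed, bases 2 to 8, in capitals.

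mmu-miR-802-5p: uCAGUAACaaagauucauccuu

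H3K27ac fold at the Mir802 region, the height of the strongest overlapping peak over its background, was 19.0 and 21.5 in WT, 28.2 and 26.9 in Cpt2 L-/-, 18.1 and 14.6 in Ppara -/- and 19.2 and 18.2 in the double knockout. The Cpt2 L-/- livers were the highest, and the other 6 libraries lay between 14.6 and 21.5. Neither deletion passed the test there (limma adjusted p = 0.071 for Ppara and 0.82 for Cpt2).

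Few regions lacked a peak in any 1 library, from 19 in WT replicate 1 to 8 in double-knockout replicate 2. Peaks were called in all 8 libraries at 337 regions, in 7 at 33 and in 6 at 37. The members just beyond the distance limit lay 50102 bases from Nenf, 50131 from Gbp6 and 50148 from Mrtfb, and the nearest intervals short of it 49781 from Foxp4, 49837 from Errfi1 and 49997 from Cstad. At the length limit, the longest members had 7442, 7678 and 7814 bases, and the shortest intervals left out had 8093, 8527 and 8615. Of the latter 3, 1 lies between Cebpb and Ptpn1 and 1 between Nudt4 and Eea1, gaps that also hold members. With 5 library calls in place of 6, 30 more intervals would have entered, with a median geometric-mean fold of 6.66 against 7.07 for members with 6 calls.

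Distances to the nearest coding gene had a median of 85241 bases (quartiles 65904 and 131908) and reached 579678 bases. The region at that largest distance, chr2:159730140-159733289, lies between Dhx35 and Gm826 and had folds from 7.2 to 18.3. The next 4 were 536.9 kb from N6amt1, 528.4 kb from Pdcd6ip, 480.5 kb from Slc35b3 and 381.2 kb from Cyp7b1, which encodes an oxysterol hydroxylase of bile acid synthesis. All 5 were called in every H3K27ac library. The region near Pdcd6ip was among the steadiest, with folds between 15.2 and 19.8 in all 8 livers, whereas the one near Slc35b3 ran from 8.75 and 9.38 in WT to 24.9 and 18.7 in Cpt2 L-/-. The Slc35b3 region was called higher for Cpt2 loss by limma, but that call was lost in 5 of 17 alternatives. These were the fits without Cpt2 L-/- replicate 1, either Ppara -/- library or double-knockout replicate 2, and the fit with peak width.

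Far regions had a median length of 2166 bases, against 1776 for near intervals, and a median geometric-mean fold of 11.6 against 10.9. An H3K4me1 interval overlapped 383 of them (94.1%), against 84.5% of near intervals, and H3K4me1 peaks in all 8 libraries covered 65.6% against 47.5%. The midpoint of 167 (41.0%) lay inside a long non-coding RNA gene of the RefSeq table, against 9.1% of near intervals. A non-coding promoter overlapped 90 far regions (22.1%) and 7.4% of near intervals by at least 1 base. Near intervals include many inside coding genes, where the mark and the gene share a position, so these shares are descriptions of 2 kinds of location. The highest members had geometric-mean levels set by folds of 22.4 to 39.0 near Rab11fip4, 20.2 to 41.8 near Arid1b, 22.8 to 53.4 near Snx5, 22.6 to 35.7 near Ak4 and 22 to 52.4 near Errfi1, which encodes a feedback inhibitor of the epidermal growth factor receptor. Of these 5, only the Rab11fip4 region passed for either deletion, with a Cpt2 difference of -0.70 ± 0.12 (SE, limma adjusted p = 0.0057) that was lost without centring and with peak width in the fit. In double knockout against WT, where 20.2% of all intervals passed, the Rab11fip4 region was lower and the Snx5 and Errfi1 regions were higher. All of these were lost with peak width in the fit. The Snx5 call was lost in 10 of 17 alternatives and the Errfi1 call in 5 of 17.

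The label of the tissue was checked by H3K27ac intervals within 1000 bases of marker genes. All 8 hepatocyte markers had intervals called in every library, as did 4 of 4 endothelial and 3 of 5 Kupffer cell and macrophage markers, and none of 4 cholangiocyte, 4 stellate and 3 lymphocyte markers had an interval called in every library. Of 3 H3K27ac intervals within 2000 bases of the Cpt2 gene, 1 was called in all 4 Cpt2-intact and no Cpt2-null library, and of 25 at Ppara, 1 was called in all 4 Ppara-intact and no Ppara-null library and 1 the reverse. Libraries held from 44454 to 48929 H3K27ac peaks with median folds from 6.69 to 8.21, and read depth is unknown. The peak names of Ppara -/- replicate 2 name another build. Its positions were read as mm10, and 397 of the 407 regions had a peak in it.

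Far regions were unevenly spread. They lay in 208 gaps between neighbouring coding genes, of which 126 held 1 region and 22 held 4 or more, the latter with 150 regions. The fullest gap, between Klf14 and Mkln1 on chromosome 6, held 15 regions over 243.2 kb, 12 of them inside long non-coding RNA genes. Next came Ly86 to Rreb1 with 13 and Cstad to 1700001O22Rik with 10. The gaps Wnt7b to Ppara, Slc45a1 to Errfi1, Cebpb to Ptpn1 and Irf2bp2 to Tomm20 held 9 each. Cebpb encodes a transcription factor of liver metabolism and the acute phase, and Ptpn1 a phosphatase that dampens insulin receptor signalling.

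Calls in these full gaps are set beside the shares over all 18281 tested intervals. Those shares were 7.34% for Ppara, 12.3% for Cpt2 and 20.2% for double knockout against WT. In Ly86 to Rreb1 none of 12 tested regions passed for either deletion, with Ppara differences on the log2 scale between -0.57 and 0.35 and Cpt2 differences between -0.35 and 0.34. In Wnt7b to Ppara, a gap that ends at a deleted gene, none of 7 passed, with differences from -0.40 to 0.10 for Ppara and from -0.37 to 0.37 for Cpt2. Slc45a1 to Errfi1 had 2 of 6 higher in Ppara-null livers, and Cebpb to Ptpn1 and Irf2bp2 to Tomm20 had 1 of 6 and 1 of 5. The double knockout was above WT at 3 of 6, 1 of 6 and 1 of 5 of these. All 6 tested regions of Cebpb to Ptpn1 had Ppara differences above 0 (0.15 to 0.96), as had all 5 of Irf2bp2 to Tomm20 (0.16 to 0.66). Of all 337 tested far regions 59.6% had a Ppara difference above 0, and gaps were not tested as units.

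**Figure D1:**
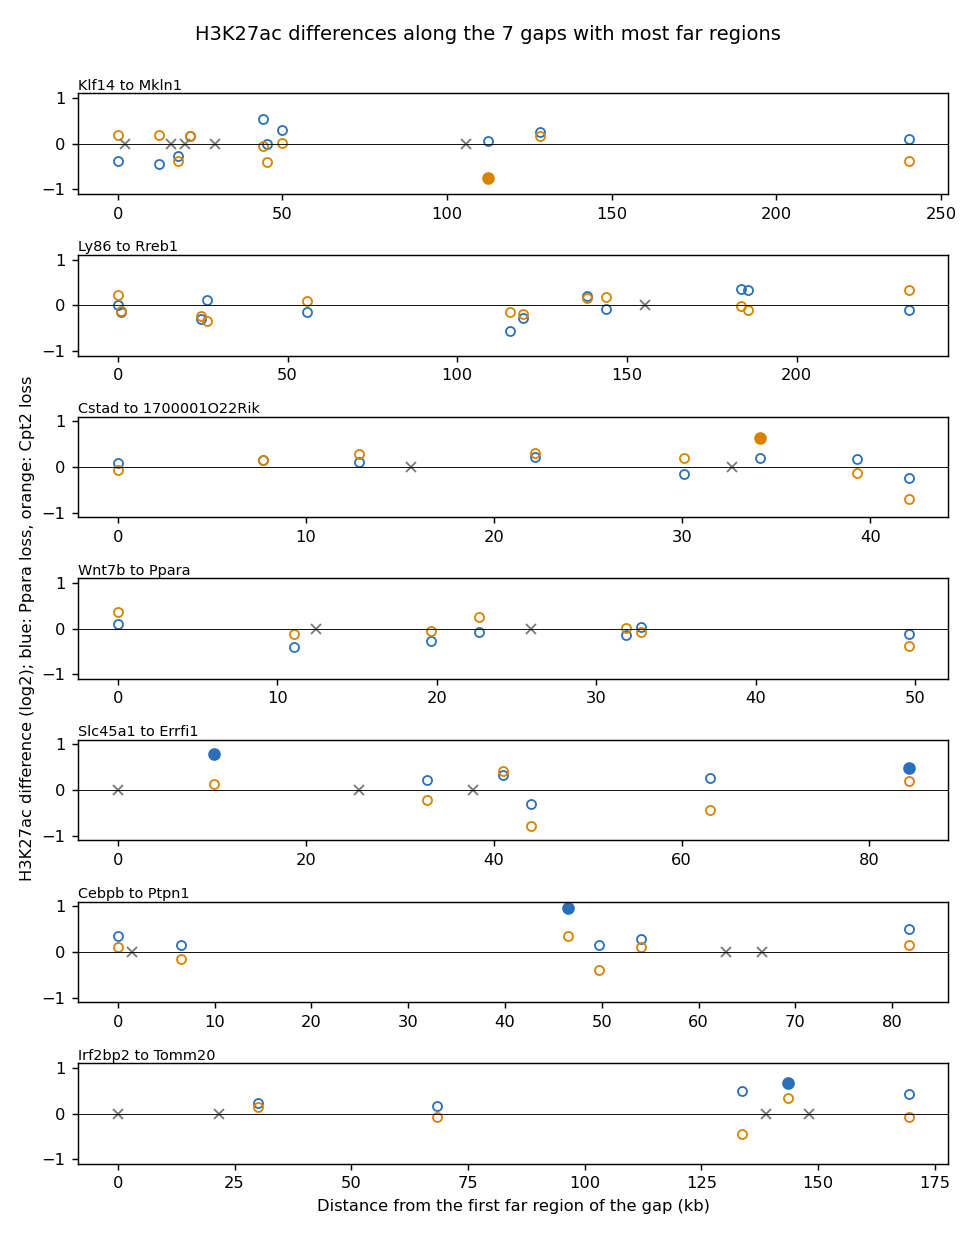
H3K27ac differences on the log2 scale (vertical) against the distance in kb from the first far region (horizontal) for the 7 gaps with most far regions. Blue marks Ppara-null minus Ppara-intact and orange Cpt2-null minus Cpt2-intact, filled points passed limma's adjusted p of 0.05, open points did not, and crosses are regions without a call in all 8 libraries; 4 filled blue points lie in Slc45a1 to Errfi1, Cebpb to Ptpn1 and Irf2bp2 to Tomm20, and 2 filled orange points in Klf14 to Mkln1 and Cstad to 1700001O22Rik.

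Loss of Ppara raised H3K27ac at 24 far regions and lowered it at 15, out of 337 tested, in a comparison of 4 Ppara-null with 4 Ppara-intact livers. This was 11.6% of the tested far regions. Over all 18281 H3K27ac intervals tested, 7.34% were called, 3.19% higher and 4.15% lower. The median log2 difference was 0.085 over the far regions and -0.014 over all intervals, and 201 of the 337 were above 0. Differences are of centred log2 folds, and the test was limma with Benjamini-Hochberg adjustment over all 18281 intervals. Folds printed for single livers, with their ranks and overlaps, are before centring unless stated. Library medians of the log2 fold ran from 3.31 in WT replicate 1 to 3.80 in double-knockout replicate 2, so ranks can change with centring. Such p-values measure the spread between these livers, and since the Ppara-null animals carry numbers of another series than the Ppara-intact ones, Ppara state and animal series cannot be told apart.

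The region between Acaa2 and Lipg fell most with Ppara loss. Lipg encodes endothelial lipase and Acaa2 a mitochondrial thiolase of fatty acid oxidation. Folds at chr18:74881472-74884530, 56.3 kb from Lipg, were 19.2 and 18.4 in WT and 33.4 and 31.5 in Cpt2 L-/-, against 9.47 and 14.4 in Ppara -/- and 6.93 and 5.84 in the double knockout. All 4 Ppara-null livers lay below all 4 others, and among the latter the Cpt2 L-/- livers were the higher pair. The log2 difference was -1.55 ± 0.17 (SE, 4 livers a side; limma adjusted p = 0.00041).

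A pair of neighbouring regions between Helt and Acsl1 fell as well. Acsl1 encodes a long-chain acyl-CoA synthetase, which activates fatty acids for oxidation or storage. At chr8:46384840-46387130, 85.1 kb from the gene, folds were 17.7 and 16.5 in WT, 21.2 and 16.9 in Cpt2 L-/-, 9.44 and 12.0 in Ppara -/- and 9.8 and 9.78 in the double knockout. At chr8:46387266-46390070 the 4 Ppara-intact folds ran from 10.4 to 14.2 and the 4 Ppara-null ones from 5.11 to 8.36. The groups did not overlap at either region. Log2 differences were -0.85 ± 0.16 and -0.92 ± 0.21 (SE; limma adjusted p = 0.0085 and 0.021), and the second lost its call without WT replicate 2, Cpt2 L-/- replicate 2 (adjusted p = 0.082), either Ppara -/- library or double-knockout replicate 2, and with peak width in the fit.

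Foxo1 encodes a transcription factor that promotes gluconeogenesis in the fasted state, and its gap with Cog6 held regions that moved in different ways. At chr3:52542645-52544938, 193.7 kb away and inside the non-coding gene Gm30173, folds were 13.0 and 11.2 in WT, 17.9 and 14.4 in Cpt2 L-/-, 6.61 and 6.12 in Ppara -/- and 7.25 and 6.45 in the double knockout. Every Ppara-null liver was below every Ppara-intact one (log2 difference -1.11 ± 0.19 SE, limma adjusted p = 0.0044). A second region, at chr3:52621896-52623358 and 272.5 kb away, gave fold values of 4.87 and 7.48 in WT, 16.5 and 17.7 in Cpt2 L-/-, 7.28 and 10.6 in Ppara -/- and 11.9 and 16.8 in the double knockout. There the Cpt2-null livers were the high ones, with a Cpt2 difference of 0.83 ± 0.19 (SE, limma adjusted p = 0.017) and a Ppara difference of 0.10 ± 0.19. The Cpt2 call was lost without Cpt2 L-/- replicate 2, Ppara -/- replicate 1 or double-knockout replicate 2. The 2 regions lie within 1 gap of 632.0 kb.

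The region that holds the Gm30081 promoter, 78.9 kb from Galnt2, a glycosyltransferase gene, gave fold values of 13.7 and 16.7 in WT, 18.8 and 16.8 in Cpt2 L-/-, 7.19 and 7.80 in Ppara -/- and 6.92 and 10.0 in the double knockout. Again the 4 Ppara-null values were the lowest (log2 difference -1.08 ± 0.17 SE, limma adjusted p = 0.0026). Between Rtl1 and Dio3, in the imprinted domain of the latter, the region of the Gm40574 promoter gave fold values of 34.7 and 29.6 in WT, 21.4 and 12.6 in Cpt2 L-/-, 10.1 and 17.3 in Ppara -/- and 10.2 and 11.5 in the double knockout. WT livers stood above the 6 others. Dio3 encodes the deiodinase that inactivates thyroid hormone and lies 256.6 kb away. Differences were -0.97 ± 0.19 for Ppara and -0.89 ± 0.19 for Cpt2 (SE; limma adjusted p = 0.0099 and 0.014), and the Cpt2 call was lost without Ppara -/- replicate 2.

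Regions that rose with Ppara loss were led by the one between Areg and Btc. At chr5:91280892-91284641, 74.5 kb from Btc and inside the non-coding gene Gm19619, folds were 7.13 and 5.22 in WT, 29.8 and 22.2 in Cpt2 L-/-, 26.0 and 22.5 in Ppara -/- and 39.2 and 46.1 in the double knockout. Both WT livers were below all 6 mutant livers, and both double-knockout livers were above the single knockouts. The difference was 1.32 ± 0.17 for Ppara and 1.18 ± 0.17 for Cpt2 on the log2 scale (SE; limma adjusted p = 0.00071 and 0.0043). The double knockout was 2.50 ± 0.24 above WT (2 livers each), the largest double-knockout difference of the 337 tested far regions. Its H3K9ac was called in the Cpt2 L-/- liver and not in the WT liver.

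Near Ppargc1a, the gene of a coactivator that drives gluconeogenesis and mitochondrial genes in fasting and itself works with the Ppara protein, the region of the Gm29924 promoter lay 165.8 kb from the gene. Folds there were 10.3 and 9.39 in WT, 19.6 and 11.9 in Cpt2 L-/-, 18.4 and 21.1 in Ppara -/- and 27.9 and 34.5 in the double knockout. Before centring, WT livers were the lowest and double-knockout livers the highest, and Cpt2 L-/- replicate 1 lay within the range of the Ppara -/- pair. On the centred scale of the test, Cpt2 L-/- replicate 2 lay just below WT replicate 1. Both Cpt2 L-/- livers were then below the Ppara -/- pair, and the double-knockout livers were still the highest. The Ppara difference was 0.98 ± 0.16 (SE, limma adjusted p = 0.0040) and the Cpt2 difference 0.38 ± 0.16 (adjusted p = 0.14).

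Between Zfp281 and Nr5a2, the region with the Platr22 promoter gave fold values of 6.8 and 13.2 in WT, 8.27 and 9.46 in Cpt2 L-/-, 23.0 and 21.0 in Ppara -/- and 16.3 and 24.8 in the double knockout. The Ppara-null livers lay above all Ppara-intact ones (1.17 ± 0.20 SE on the log2 scale, limma adjusted p = 0.0043). Nr5a2 encodes a nuclear receptor of bile acid and cholesterol metabolism. On its other side, 50.2 kb away, a region at chr1:137010085-137011238 rose too, with 3.89 and 6.0 in WT, 11.4 and 8.56 in Cpt2 L-/-, 9.56 and 14.4 in Ppara -/- and 11.4 and 15.0 in the double knockout. That difference was 0.81 ± 0.19 (SE, limma adjusted p = 0.024), and the call was lost without any 1 of 4 libraries (WT replicate 1, Cpt2 L-/- replicate 2, Ppara -/- replicate 2, double-knockout replicate 2; highest adjusted p = 0.11) and with peak width in the fit.

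In the Cebpb to Ptpn1 gap, the region at chr2:167798166-167800324, 108.8 kb from Cebpb, gave fold values of 5.0 and 6.57 in WT, 10.1 and 9.71 in Cpt2 L-/-, 11.1 and 14.8 in Ppara -/- and 18.4 and 16.5 in the double knockout. Before centring the 4 genotypes did not overlap one another, with WT lowest and the double knockout highest. On the centred scale of the test, Ppara -/- replicate 2 lay above double-knockout replicate 2, so those genotypes overlapped. The Ppara difference was 0.96 ± 0.18 (SE, limma adjusted p = 0.0066). Other regions with large rises lay 195.0 kb from Fhit (1.16 ± 0.17), 151.8 kb from Nudt4 (1.14 ± 0.19) and 55.6 kb from Cep85l (1.03 ± 0.18), with adjusted p of 0.0018, 0.0040 and 0.0053. At the Fhit region the 4 Ppara-null folds ran from 20.2 to 24.0 and the Ppara-intact ones from 6.91 to 11.0. Ppara calls near Fhit, Nudt4, Cep85l, Ppargc1a, Btc, Lipg, Galnt2, Dio3, Cebpb, Platr22 and the first Foxo1 region held under each of the alternatives tried, the fit with peak width included.

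**Figure D2:**
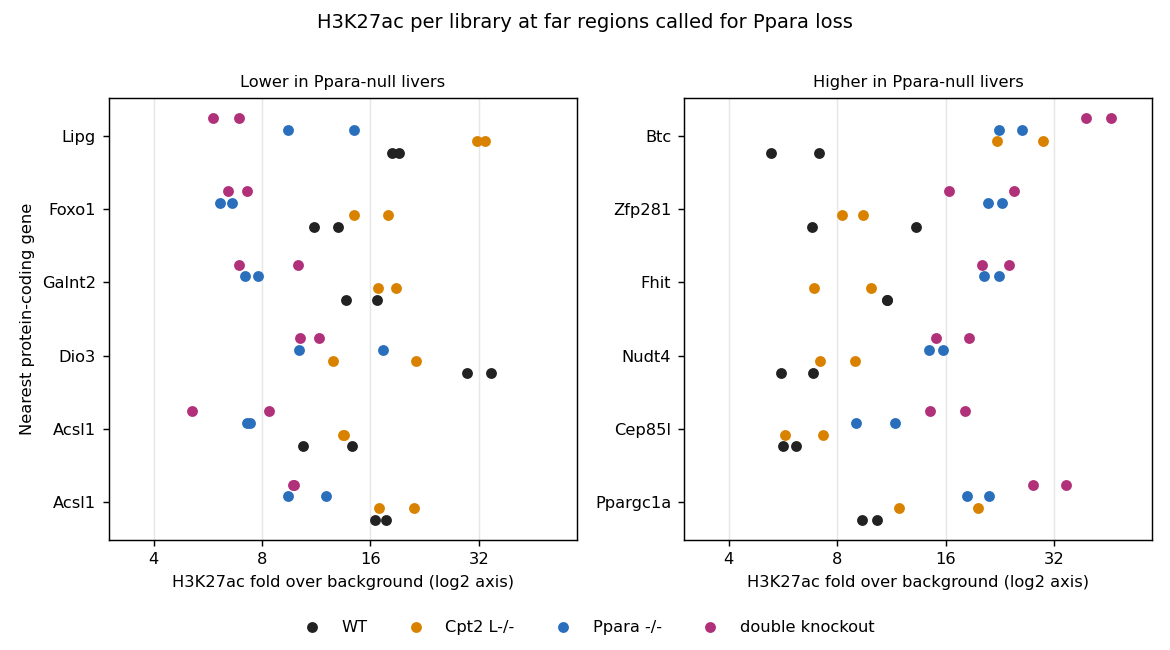
H3K27ac fold over background (log2 axis) in each of the 8 libraries at the 6 far regions that fell most (left) and the 6 that rose most (right) with Ppara loss, labelled by the nearest coding gene; Acsl1 has 2 regions. Points are single livers coloured by genotype; on the left the Ppara-null livers lie below the Ppara-intact ones except at Dio3, and at Btc the WT livers, at 7.13 and 5.22, stand apart from the 6 others.

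The number of Ppara calls depended on single livers, over all intervals as at the far regions. It was 39 with all 8 libraries, 36 and 24 without WT replicates 1 and 2, and 28 and 14 without Cpt2 L-/- replicates 1 and 2. It was 21 and 24 without Ppara -/- replicates 1 and 2, and 22 and 21 without double-knockout replicates 1 and 2. The share called over all intervals was 7.34% with all 8 libraries. That share ran from 2.57% without Cpt2 L-/- replicate 2 to 8.36% without WT replicate 1. With the smallest peak width of each library in the fit, 24 far regions were called (7.12%), 14 higher and 10 lower, against 3.9% of all intervals.

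Loss of Cpt2 raised H3K27ac at 18 far regions and lowered it at 19 of the 337, or 11.0%. Over all tested intervals 12.3% were called, 4.9% higher and 7.38% lower, so the far share was close to the background. The median difference was 0.013 over the far regions and -0.014 over all intervals. None of these calls remained when the smallest peak width of each library entered the fit (0 calls, 43 at an unadjusted p under 0.05). That fit also called 0 of all 18281 intervals for Cpt2, so the loss was not particular to far regions. Smallest peak width was 217 to 223 bases in the Cpt2-null libraries and 198 to 210 in the others, so it cannot be told apart from Cpt2 state. Without centring, which shifted the median of all intervals to 0.25, 66 far regions were called higher and 6 lower. This was 21.4% of those tested, where 21.5% of all intervals were called. Directions are therefore relative to each library's median.

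The region that fell most lies 72.9 kb from 3110040M04Rik, inside the non-coding gene Gm36139 at chr1:151128350-151134098. Folds were 28.2 and 26.6 in WT, 13.6 and 16.1 in Cpt2 L-/-, 17.5 and 22.4 in Ppara -/- and 11.0 and 10.4 in the double knockout. The Cpt2-null livers were the lower 4 (log2 difference -1.15 ± 0.16 SE, limma adjusted p = 0.0038). Near Ak4, a mitochondrial adenylate kinase gene, the region at chr4:101349667-101351518 had 12.7 and 7.14 in WT, 6.0 and 5.25 in Cpt2 L-/-, 8.35 and 9.29 in Ppara -/- and 4.11 and 5.22 in the double knockout. Its difference was -1.11 ± 0.23 (SE, limma adjusted p = 0.011). The next region downstream, one of the 5 highest members, was not called (-0.04 ± 0.14, adjusted p = 0.88).

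The others among the 6 largest falls were near Ppm1b (-1.07 ± 0.18), Alg10b (-0.98 ± 0.22), Ogfrl1 (-0.93 ± 0.19) and Dio3. At Ppm1b, a protein phosphatase gene, the Cpt2-null folds ran from 5.32 to 7.48 and the Cpt2-intact ones from 9.6 to 14.0. Alg10b had 1 double-knockout liver at 15.3, within the range of the Cpt2-intact livers, and its call was lost without Cpt2 L-/- replicate 1 or Ppara -/- replicate 1.

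Among the rises, the Btc region came first. The region near Palmd, at chr3:117060569-117061332, gave fold values of 6.83 and 6.12 in WT, 20.2 and 17.3 in Cpt2 L-/-, 7.83 and 9.5 in Ppara -/- and 14.3 and 21.9 in the double knockout (log2 difference 1.02 ± 0.18 SE, limma adjusted p = 0.0063). The region 267.0 kb from Sox5 had 8.44 and 7.63 in WT, 24.9 and 22.5 in Cpt2 L-/-, 8.0 and 9.23 in Ppara -/- and 12.4 and 15.1 in the double knockout (0.85 ± 0.16, adjusted p = 0.0089). In both, the 4 Cpt2-null livers were the highest, and at Sox5 the Cpt2 L-/- pair exceeded the double-knockout pair. Regions near Rap1b (0.83 ± 0.16), the second Foxo1 region and Dhx40 (0.82 ± 0.20) followed, the last lost without WT replicate 2, Cpt2 L-/- replicate 1, Ppara -/- replicate 1 or double-knockout replicate 2.

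Smaller rises were called near Vegfa and Dusp6. The region 58.6 kb from Vegfa, which encodes the angiogenic growth factor, had 11.3 and 13.1 in WT, 32.9 and 31.0 in Cpt2 L-/-, 16.6 and 20.2 in Ppara -/- and 27.1 and 21.6 in the double knockout (0.63 ± 0.15 SE, limma adjusted p = 0.019). The region 193.3 kb from Dusp6, the gene of a phosphatase that inactivates ERK kinases, had 9.59 and 10.8 in WT and 24.5 and 22.4 in Cpt2 L-/-, with 13.1 to 24.1 in the Ppara-null livers (0.63 ± 0.14, adjusted p = 0.017). These and the next were chosen after their values were seen and are not among the 6 largest. Near Glul, which encodes glutamine synthetase, a region 124.1 kb away differed for each deletion in opposite directions: folds were 6.8 and 9.44 in WT, 19.3 and 17.2 in Cpt2 L-/-, 5.16 and 6.26 in Ppara -/- and 11.1 and 10.3 in the double knockout. The Cpt2 difference was 0.78 ± 0.18 and the Ppara difference -0.66 ± 0.18 (SE; limma adjusted p = 0.016 and 0.038).

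**Figure D3:**
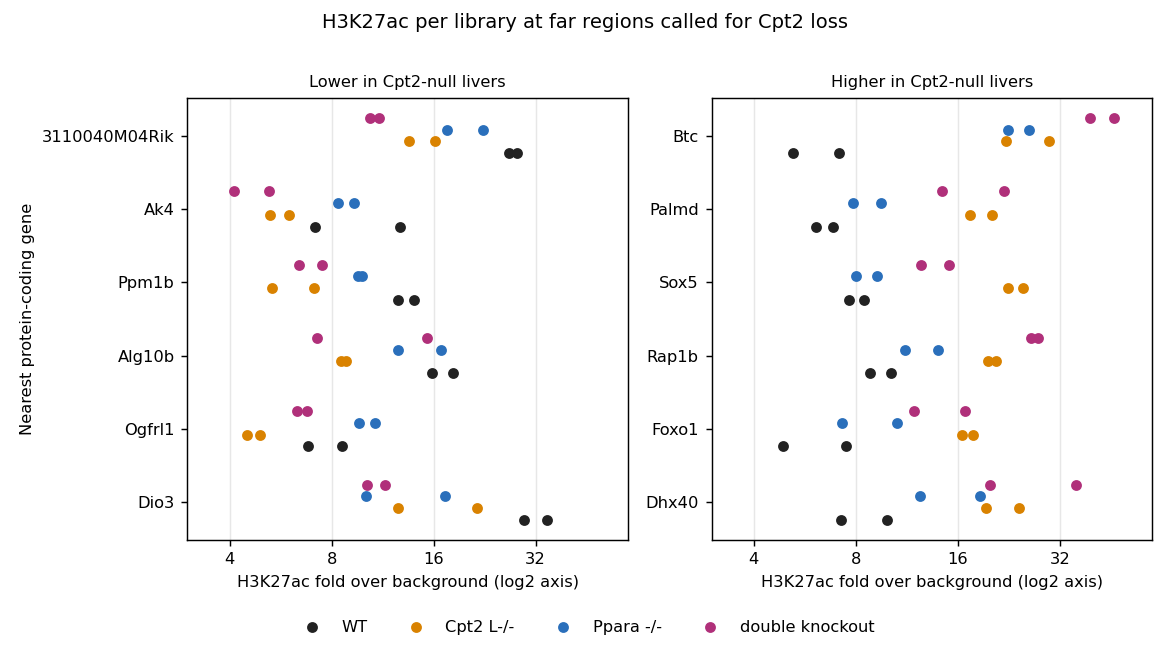
H3K27ac fold over background (log2 axis) in each library at the 6 far regions that fell most (left) and the 6 that rose most (right) with Cpt2 loss, labelled by the nearest coding gene. Points are single livers coloured by genotype; at Sox5 the Cpt2 L-/- pair (24.9 and 22.5) lies above the double knockouts (12.4 and 15.1).

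The count for Cpt2 also moved with single livers, from 37 to 15 without Cpt2 L-/- replicate 1 and 21 without Cpt2 L-/- replicate 2. It was 38 and 29 without WT replicates 1 and 2, and 21 and 19 without Ppara -/- replicates 1 and 2. Without double-knockout replicates 1 and 2 it was 23 and 19. The share called over all intervals moved as well, from 12.3% with all 8 libraries to 3.78% without Cpt2 L-/- replicate 1 and 13.6% without WT replicate 1.

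The interaction, which asks whether Cpt2 loss acts differently with and without Ppara, was called by limma at 0 far regions (53 of 337 at an unadjusted p under 0.05), against 0.00547% of all intervals. The double knockout differed from WT at 77 far regions (22.8%), 49 higher and 28 lower, where 20.2% of all intervals were called, 8.62% higher and 11.5% lower. After the Btc region, the largest rise lay 53.9 kb from Ywhaz, a gene of the 14-3-3 adaptor family, with 4.88 and 3.78 in WT against 12.6 and 18.7 in the double knockout (1.54 ± 0.28 SE, limma adjusted p = 0.0038). The largest falls were at Dio3 (-1.86 ± 0.27), Lipg (-1.86 ± 0.25), 3110040M04Rik (-1.65 ± 0.22) and near Cyp2d40 (-1.60 ± 0.32), a gene of the cytochrome P450 family. A region 51.5 kb from Nampt, whose enzyme makes the precursor of NAD, had 15.4 and 14.5 in WT and 6.57 and 8.70 in the double knockout (-1.28 ± 0.34, adjusted p = 0.020), but the Ppara -/- livers differed from each other at 6.5 and 17.1, and the call was lost without either WT or either double-knockout library. Without centring 80 far regions were higher and 14 lower, and over all 18281 intervals 3155 were higher and 860 lower. With peak width in the fit, 0 of all 18281 intervals were called for double knockout against WT. The far count with peak width in the fit was likewise 0 (54 at an unadjusted p under 0.05). Leaving out any library lowered the far count, to 29 without double-knockout replicate 2 and to 70 without a single-knockout library. The share called over all intervals was lower as well, from 7.69% without double-knockout replicate 2 to 18.6% without either Ppara -/- library.

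**Figure D4:**
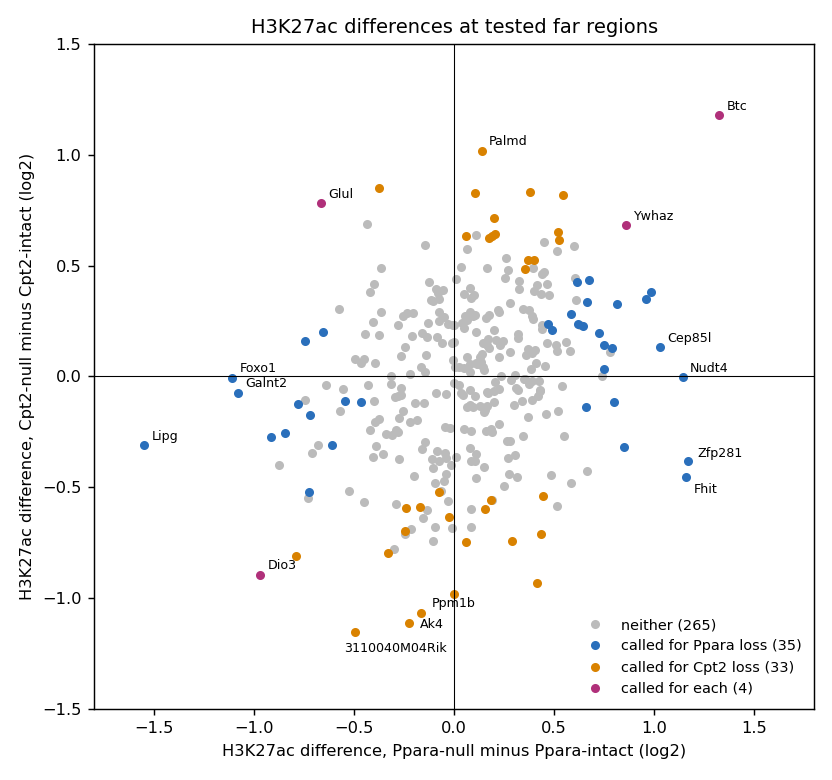
H3K27ac differences at the 337 tested far regions, Ppara-null minus Ppara-intact (horizontal, log2) against Cpt2-null minus Cpt2-intact (vertical, log2). Blue points were called for Ppara loss, orange for Cpt2 loss and purple for each; Btc lies at 1.32 and 1.18 and Lipg at -1.55 and -0.31. The contrasts use the same 8 livers.

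Lists of genes were compared with the genes that flank far regions. No far region was flanked by any of 22 listed Ppara target genes, among them Cyp4a10, Cpt1a, Pdk4 and Fgf21. That list did not hold Acsl1 or Acaa2, genes of fatty acid use also known as Ppara targets, which flank the fallen regions above. Both are named because their regions fell. Other targets outside the list were not counted, so the pair does not alter the count for the list. Shares of all tested intervals are repeated here for comparison: 3.19% were higher and 4.15% lower for Ppara, 4.9% and 7.38% for Cpt2, and 8.62% and 11.5% for double knockout against WT. Of 29 hepatocyte transcription factor genes 8 flanked 31 regions, of which 24 were tested: with Ppara loss 4 rose and 0 fell (median 0.12, against -0.014 over all intervals), 0 were called for Cpt2 (median 0.07), and 3 were higher and 0 lower in the double knockout than in WT. The 4 were the regions by Platr22, at the other side of Nr5a2 (the call lost in the alternatives above), at Cebpb and at Ppargc1a. The 4 regions between Smyd2 and Prox1, a gene of hepatocyte identity, had geometric-mean folds from 14.5 to 21.7, and none was called. The 1 region of Foxa2, which encodes a pioneer factor of liver enhancers, was not called either (-0.36 for Ppara and 0.49 for Cpt2).

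Of 23 fasting and growth signalling genes 4 flanked 22 regions, with 19 tested, 1 higher and 1 lower for Ppara (median -0.07) and 1 higher for Cpt2 (median -0.15). These counts do not set the list apart from the shares over all intervals. Between double knockout and WT 2 were higher and 2 lower. The Ppara rise was in the gap of Cryaa and Sik1, which encodes a kinase induced by fasting signals: folds were 13.4 and 21.6 in WT, 12.2 and 10.3 in Cpt2 L-/-, 18 and 25.5 in Ppara -/- and 25.1 and 36.2 in the double knockout (0.85 ± 0.16 SE, limma adjusted p = 0.0082). WT replicate 2 lay above Ppara -/- replicate 1, so the groups overlapped. The 8 regions by Irs2, an adaptor of the insulin receptor, gave 7 tested and no call for either deletion, with Ppara differences from -0.57 to 0.39, and 1 was higher in the double knockout than in WT (0.88 ± 0.28 SE, limma adjusted p = 0.043). That call was lost without any 1 of 6 libraries, the WT, Ppara -/- and double-knockout ones. The 6 by Bcl6, a transcriptional repressor, gave none for either deletion, from -0.87 to 0.51 for Ppara, and 1 lower in the double knockout (-1.27 ± 0.35 SE, adjusted p = 0.024), lost without WT replicate 1 or double-knockout replicate 2.

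Of 20 growth and differentiation genes 11 flanked 23 regions, with 21 tested, 3 higher for Ppara (median 0.32), and 1 higher and 1 lower for Cpt2 (median 0.11), of which the Cpt2 count is near the share over all intervals. Between double knockout and WT 4 were higher and 1 lower. Of the 3 called for Ppara, 2 lie in the Myc to Gsdmc gap. Inside the non-coding gene Pvt1, 53.2 kb from Myc, folds were 4.57 and 4.12 in WT, 5.0 and 3.9 in Cpt2 L-/-, 6.0 and 8.33 in Ppara -/- and 7.75 and 9.5 in the double knockout (0.80 ± 0.19 SE, limma adjusted p = 0.023). At 340.0 kb they were 6.32 and 8.71 in WT, 17.5 and 11.1 in Cpt2 L-/-, 12.8 and 15.2 in Ppara -/- and 19.0 and 20.4 in the double knockout (0.67 ± 0.17, adjusted p = 0.032). In the first the groups did not overlap, and in the second only Cpt2 L-/- replicate 1, at 17.5, reached into the Ppara-null range. The third was between Fst and Mocs2 (0.72 ± 0.18, adjusted p = 0.028). Each of the 3 was lost with peak width in the fit and without Cpt2 L-/- replicate 2, Ppara -/- replicate 2 or double-knockout replicate 2 (highest adjusted p = 0.099, 0.16 and 0.11). The Pvt1 call was also lost without WT replicate 2, the second Myc call without WT replicate 1, Ppara -/- replicate 1 or double-knockout replicate 1, and the Fst call without WT replicate 2, Cpt2 L-/- replicate 1 or Ppara -/- replicate 1. These lists were drawn up with earlier results of the data known.

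H3K4me1 was a measure the selection had not used. The 407 regions overlapped 660 H3K4me1 consensus intervals, 327 of them called in all 8 libraries. None of the 327 passed for Ppara loss by limma (66 at an unadjusted p under 0.05), against 0.128% of all 19526 intervals tested, and none for Cpt2 loss (37 unadjusted), against 0.0% of all. Medians were 0.11 for Ppara and 0.09 for Cpt2, with -0.0091 and -0.0039 over all intervals, and the far medians were 0.0024 and -0.0011 with smallest peak width in the fit. Without Cpt2 L-/- replicate 1, 27 intervals (8.26%) were called for Ppara, where 5.2% of all were, and without Cpt2 L-/- replicate 2, 3 (0.917%) were called for Cpt2, where 1.07% of all were.

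Side by side with H3K27ac, H3K4me1 of the same livers ran as follows. Where several H3K4me1 intervals called in all 8 libraries overlapped a region, the one with the highest mean fold stood for it. The differences are from the fit without peak width, and these medians were not recomputed with it. At the 18 regions higher in H3K27ac with Ppara loss and measurable for both marks, the H3K4me1 difference had a median of 0.41 and ran from 0.12 to 0.73. At the 10 lower regions the median was -0.17 (-1.02 to 0.26), and at the 207 not called it was 0.10. For Cpt2 the 10 higher regions had a median H3K4me1 difference of 0.51 (-0.04 to 0.92), the 16 lower ones -0.02 (-0.43 to 0.55) and the 209 not called 0.11. At the Nudt4 region, for example, H3K4me1 folds were 7.07 and 6.83 in WT, 9.11 and 7.0 in Cpt2 L-/-, 7.86 and 11.6 in Ppara -/- and 13.6 and 10.5 in the double knockout. At the Lipg region, where H3K27ac fell, H3K4me1 was 9.6 and 7.14 in WT against 12.8 and 9.57 in the double knockout. The Ppara difference there was 0.26 on the log2 scale and not called, the highest H3K4me1 difference of the 10 lower regions.

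H3K9ac separated the regions by liver. It was called in both livers at 230 regions, in the WT liver alone at 93 and in the Cpt2 L-/- liver alone at 84. The H3K27ac difference of Cpt2 L-/- minus WT (centred log2 folds, 2 livers each) had a median of 0.36 at regions with H3K9ac in the Cpt2 L-/- liver alone (quartiles 0.01 and 0.76) and was above 0 at 49 of 65 measurable ones. It was 0.01 where both livers had H3K9ac (109 of 213 above 0) and -0.04 where the WT liver alone had it (37 of 79). Regions of a single-liver class entered the selection through that liver's H3K9ac call, and there was 1 H3K9ac library a genotype, so these values are a description without a test and nothing is read from them.

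**Figure D5:**
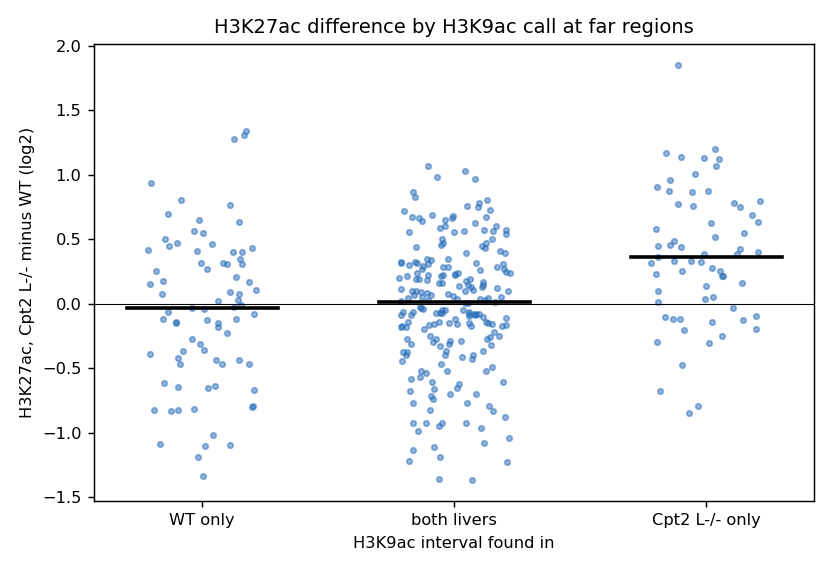
H3K27ac difference of Cpt2 L-/- minus WT on the log2 scale (vertical) at far regions grouped by the livers in which H3K9ac was called (horizontal). Points are regions and bars are medians, at -0.04, 0.01 and 0.36 from left to right.

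The 70 regions without a call in all 8 libraries were not tested. Of these, 8 had no peak in either WT liver and one in all 6 mutant livers. By the rule of at least 6 calls, a region missed in both livers of 1 genotype must have a peak in the other 6. Counts of such regions therefore describe the selection, their share over all intervals was not determined, and no genotype effect is read from them. The highest folds of the 8 were 285.5 kb from Saraf, in the gap with Dusp4, another ERK phosphatase gene, at chr8:34453839-34458842, with folds of 9.38 and 9.71 in Cpt2 L-/-, 21.6 and 21.6 in Ppara -/- and 25.6 and 33.8 in the double knockout. Another lay 196.3 kb from Sgk1, which encodes a kinase of the insulin and glucocorticoid pathways, with mutant folds from 9.86 to 24.3. In 9 regions the peak was missing in both Cpt2 L-/- livers alone, among them a neighbouring pair 160.3 and 169.5 kb from Ppp1r3b, the gene of a glycogen-targeting subunit of protein phosphatase. The nearer of that pair had 18.2 and 17.5 in WT, 13.4 and 14.6 in Ppara -/- and 8.06 and 12.8 in the double knockout. A missing peak means no call by the authors' threshold, not an absence of signal. Peaks were missing in both double-knockout livers at 2 regions, of which 1, 74.1 kb from Ppara, had 10.6 and 18.7 in WT, and in both Ppara -/- livers at 1.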

How the data were processed

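ChIP-seq of H3K27ac and H3K4me1 gave 1 peak list per library. Per the submitters' processing notes the tools were BWA and MACS2 2.1.0 with mm10. In the deposited lists each peak's fold is the authors' ratio of pileup to background, and −log10 p and −log10 q were deposited beside it. Consensus positions, deposited in bases, were made 1-based here; for H3K9ac the caller is not given in the sources used here. Read depth is unknown.

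A library's highest peak overlapping an interval by at least 1 base gave its fold. Log2 folds were centred on each library's median over intervals called in all 8. Limma 3.58.1 (R 4.3.3, Python 3.11.15) fitted 4 genotype means to the 8 libraries of a mark, with Benjamini-Hochberg adjustment and a threshold of 0.05. The fit was checked on simulated data. Gene positions came from RefSeq GRCm38.p6. Replicate numbers do not pair the livers in the labels and were not used as a block.

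Regions were named by rule: per contrast and direction the 6 largest differences past the threshold, the 5 highest, the 5 farthest, the fullest gaps (4 were tied at 9 regions, so 7 are given) and those flanked by listed genes. Members and lists were chosen with earlier results of these data known. With no genome of the build, no motif was searched.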

Additional observations from a re-analysis of the deposited data

How the results depend on the processing

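Of 72 region differences that passed the threshold and are among the named regions, 1215 values were recomputed under the alternatives: 1005 kept direction and call, 206 kept direction only and 4 reversed. All 4 reversals came with smallest peak width in the fit: near Mocs2 for the double knockout (-0.25), near Ywhaz for Cpt2 (-0.14), and near Dhx40 for Cpt2 (-0.60) and for the double knockout (-0.29). That fit gave 24 calls for Ppara, 0 for Cpt2 and 0 for the double knockout against WT, where 3.9%, 0% and 0% of all intervals were called. Beyond 100000 bases, where 137 regions were tested, there were 18, 15 and 31 calls, with fewer regions by construction. These were 13.1%, 10.9% and 22.6% of the tested, against 7.34%, 12.3% and 20.2% of all intervals. Without centring Cpt2 had 72 calls (21.4%, against 21.5% of all intervals), and with missing folds filled by the lowest fold 61 (15% against 14.9%). A minimum −log10 q of 10 gave 1 H3K4me1 call for Ppara (0.366%, against 0.154% of all intervals). Leaving out 1 library gave 14 to 36 calls for Ppara, 15 to 38 for Cpt2 and 29 to 70 for the double knockout. Over all intervals the same fits called 2.57% to 8.36%, 3.78% to 13.6% and 7.69% to 18.6%. H3K4me1 calls at far regions were 0 to 27 for Ppara and 0 to 3 for Cpt2, with the shares over all intervals given above. The interaction stayed at 0 far regions. With the replicate number as a block there were 43 calls for Ppara, 42 for Cpt2 and 83 for the double knockout. These were 12.8%, 12.5% and 24.6% of the tested, against 8.15%, 13.9% and 21.6% of all intervals. That fit gave 0 calls for the interaction and both H3K4me1 contrasts. Correlations of same-numbered livers ran from -0.065 to 0.172 for H3K27ac and -0.489 to 0.101 for H3K4me1. The cause of these shifts was not tested. Folds carry no read counts, so the precision of a single fold is unknown, and regions absent from any library's list were left out of the fit.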
